A study of Mus musculus with 4 samples.

Results

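The 405 nuclei described here are GABAergic neurons of the mouse lateral septum (LS) dissection that carried RNA of Calcr, the calcitonin receptor, and no RNA of Pth2r, the parathyroid hormone 2 receptor. A nucleus was counted when it held at least 2 unique molecular identifiers (UMIs, tags that count single RNA molecules) of Calcr, 0 of Pth2r and 0 of Esr1, the estrogen receptor. It also had to hold at least 1 UMI of the GABA-synthesizing enzymes Gad1 and Gad2 together, fewer than 2 of the glutamate transporter Slc17a6 and fewer than 3 of St18, a transcription factor. These Calcr neurons made up 405 of 37262 GABAergic nuclei and of 48940 nuclei of all types within the quality limits, out of 58372 barcodes. The values of these genes chose the nuclei, so their levels below are a description and were not tested.

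Single-nucleus RNA sequencing was performed on the LS of male mice aged 6 to 8 weeks, with tissue of 3 mice pooled in each of 4 libraries. C57BL/6JNifdc (C57J) mice gave 2 libraries, C57J 1 in batch 1 and C57J 2 in batch 2, whereas BALB/c nude mice and BALB/c mice gave 1 library each, both in batch 2. Nude mice lack T cells through a defect of Foxn1 on the BALB/c background. A contrast of both with C57J therefore cannot tell the genetic background from anything else that the nude and BALB/c libraries have in common. No group received a treatment, and the pooling hides the spread between single mice, so each p-value below measures the spread between libraries. Of the Calcr neurons 84 came from C57J 1 and 101 from C57J 2, whereas nude mice gave 113 and BALB/c mice 107, with summed depths of 748077, 718244, 814334 and 1315033 UMIs and medians of 8174.5, 6363, 6608 and 11389 UMIs per nucleus, respectively. BALB/c was the deepest library and C57J 2 the shallowest, both in these neurons and over all barcodes (125998527 and 72912922 UMIs).

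The calcitonin receptor is a class B G protein-coupled receptor that raises cyclic AMP, and it becomes an amylin receptor when it pairs with a receptor activity-modifying protein (RAMP). In the forebrain it is best known from neurons of the preoptic area and hypothalamus, where amylin and calcitonin act on feeding and on social and parental behavior. The LS is built mainly of GABAergic projection neurons, and the study counts Calcr among the genes of its type LSN11, beside Pth2r and Acvr1. The nuclei described here hold no Pth2r UMI and were not assigned to a type of the study.

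Calcr lies on the reverse strand at chr6:3685680-3764714 (GENCODE vM21 on GRCm38). The sequences around its start sites, from 250 bases before to 50 after each (RefSeq, GRCm38.p6), are shown because this gene defines the cells. Start site 1 is at chr6:3763574-3763873 and start site 2 at chr6:3764664-3764963, both written 5′ to 3′ on the reverse strand, and capitals mark TGACG, the core of the cAMP response element.
Calcr start site 1: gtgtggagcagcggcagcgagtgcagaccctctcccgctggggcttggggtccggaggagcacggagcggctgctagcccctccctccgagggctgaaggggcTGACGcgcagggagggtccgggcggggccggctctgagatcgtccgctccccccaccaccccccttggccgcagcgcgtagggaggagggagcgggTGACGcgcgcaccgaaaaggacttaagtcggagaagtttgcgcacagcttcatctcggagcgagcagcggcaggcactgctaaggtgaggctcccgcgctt
Calcr start site 2: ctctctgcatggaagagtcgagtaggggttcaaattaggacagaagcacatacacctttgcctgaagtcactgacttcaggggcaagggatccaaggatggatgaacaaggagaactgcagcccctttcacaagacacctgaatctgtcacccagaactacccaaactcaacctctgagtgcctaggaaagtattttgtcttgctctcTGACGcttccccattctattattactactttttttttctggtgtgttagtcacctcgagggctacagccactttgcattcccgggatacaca
TGACG, searched on both strands (CGTCA on the other), was found 2 times at start site 1, at −147 and −51, and 1 time at start site 2, at −42. The letters occur in 20.8% of all 32851 windows of the same length, so a match of this kind is common.

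Calcr itself stood at 402, 422, 408 and 326 CPM (UMIs scaled to the total of the summed nuclei) in C57J 1, C57J 2, nude and BALB/c, in the order kept for all values below. Its level was lowest in the deepest library, BALB/c. Just inside the limit were 191 nuclei with 2 Calcr UMIs, followed by 88 with 3 and 126 with 4 or more, up to 21. Just outside were 620 otherwise equal nuclei with 1 Calcr UMI. Of 513 GABAergic nuclei with at least 2 Calcr UMIs, 32 were left out for 1 Pth2r UMI and 14 for at least 2, 45 for 1 Esr1 UMI and 12 for at least 2, and 5 for both genes. Of 969 oligodendrocytes and 901 astrocytes, 0 held 2 Calcr UMIs, which allows shares of up to 0.31% and 0.333%, at median depths of 2556.5 to 4550.5 UMIs per library.

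The LS marker Trpc4, an ion channel gene, was found in 78.6%, 83.2%, 90.3% and 89.7% of these nuclei, against 71.3%, 76.5%, 80.6% and 71.1% of GABAergic nuclei without Calcr. The Calcr neurons had the higher median depth in every library, and a deeper nucleus shows a UMI of any gene more easily. By level in CPM, Trpc4 was lower in the Calcr neurons than in the other nuclei in both C57J libraries. It was higher in nude and slightly higher in BALB/c. The 10 LS neuron markers summed to 1530, 1730, 2150 and 2100 CPM, against 1850, 1910, 2120 and 1910 CPM in GABAergic nuclei without Calcr. Otx2os1, a noncoding RNA and another of these LS markers, was found in 28.6%, 25.7%, 28.3% and 38.3% of the nuclei, against 8.16%, 9.39%, 13.4% and 10.6% of GABAergic nuclei without Calcr. It was thus found more often in the Calcr neurons of all 4 libraries, although most of them held no UMI of it. Preoptic and hypothalamic neurons, where Calcr is best known, were checked through 10 transcription factors. Of these, 6 (Hmx2, Hmx3, Nr5a1, Fezf1, Six6 and Rax) were at 0 in all libraries and the 10 summed to 2.67, 2.78, 2.46 and 0 CPM. The glutamatergic markers Slc17a7, Neurod6 and Neurod2 were also at 0. RNA of glia was present at levels below those of other GABAergic nuclei, with oligodendrocyte markers (8 genes) at 428, 420, 305 and 287 CPM and astrocyte markers (8 genes, Slc1a2 the most abundant) at 793, 540, 711 and 529 CPM.

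The partners of the receptor were scarce in these neurons, and its ligands were near absent. Ramp1, the RAMP of the main amylin receptor, stood at 21.4, 13.9, 4.91 and 6.08 CPM. Both C57J libraries were above nude and BALB/c, but these levels rest on 16, 10, 4 and 8 UMIs, and Ramp1 was not called in the strain comparison below (log2 fold change −1.65 ± 0.53, adjusted p = 0.43 by edgeR). Ramp2 was at 2.67, 2.78, 2.46 and 2.28 CPM, and Ramp3 at 1.34, 1.39, 1.23 and 0 CPM. Calcrl, the related receptor that binds CGRP and adrenomedullin with a RAMP, stood at 10.7, 8.35, 4.91 and 8.36 CPM. Crcp, an intracellular component of CGRP receptor signaling, was the most abundant of these at 29.4, 32.0, 39.3 and 25.9 CPM. Among ligand genes, Iapp (amylin), Calcb and Adm2 had 0 UMIs, which allows up to 0.834 CPM over the 4 libraries, and Calca and Adm had 1 UMI each in all 405 nuclei.

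Other hormone receptors were more abundant. Prlr, the prolactin receptor, stood at 172, 150, 235 and 165 CPM against 86.5, 104, 124 and 92.4 CPM in GABAergic nuclei without Calcr. It was higher in the Calcr neurons of all 4 libraries. Esr1, the receptor kept out by the rule, was at 0 by construction. Nr3c1, the glucocorticoid receptor, stood at 166, 135, 172 and 163 CPM and Pgr, the progesterone receptor, at 56.1, 55.7, 54.0 and 42.6 CPM. Receptors of other feeding peptides were low, with Glp1r at 6.68, 5.57, 14.7 and 13.7 CPM, Mc4r at 1.34, 1.39, 0 and 1.52 CPM and Lepr at 8.02, 1.39, 1.23 and 0.76 CPM. Crhr1, a receptor of corticotropin-releasing hormone, was lower than in the other GABAergic nuclei in every library (2.67, 4.18, 3.68 and 7.6 against 13.6, 13.5, 13.3 and 14.6 CPM).

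Of the neuropeptide genes, Sst (somatostatin) stood at 33.4, 23.7, 30.7 and 35.7 CPM, below the 39.6, 32.5, 38.4 and 40.0 CPM of other GABAergic nuclei. Nts (neurotensin) stood at 26.7, 20.9, 27.0 and 19.0 CPM against 30.3, 23.8, 24.8 and 32.5 CPM. Penk (enkephalin) stood at 57.5, 25.1, 11.1 and 38.0 CPM against 29.7, 20.1, 14.6 and 26.7 CPM, and came mainly from a single group of nuclei described below. For the transmitter itself, Gad2 stood at 401, 337, 414 and 441 CPM. The vesicular GABA transporter Slc32a1 stood at 61.5, 48.7, 43.0 and 56.3 CPM, in every library below the 67.6, 53.6, 57.3 and 71.3 CPM of other GABAergic nuclei.

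Among genes at 50 CPM or more in the Calcr neurons of every library, the 12 with the largest ratio to GABAergic nuclei without Calcr were led by Peg10, Otx2os1, Zfp804b, Ndst4 and Reln. Reln, which encodes the secreted guidance protein reelin, stood at 245, 226, 204 and 232 CPM against 83.7, 91.5, 115 and 84.4 CPM. Zfp804b, a zinc finger gene, stood at 1640, 1890, 2030 and 1760 CPM, and no library of the other nuclei exceeded 746 CPM. The 12 also held Dnah7b, an axonemal dynein, at 88.2, 84.9, 122 and 72.2 CPM. This contrast follows the choice by Calcr and is given as a description.

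Peg10, an imprinted gene derived from a retroelement, lies in the same region of chromosome 6 as Calcr, 983 kb beyond its start. It stood at 52.1, 51.5, 61.4 and 66.2 CPM against 15.2, 13.1, 17.6 and 15.6 CPM, a ratio of 3.76. Calcr, Peg10, Sgce and Asb4 belong to a known imprinted cluster. Asb4, a ubiquitin ligase adaptor 1620 kb beyond the start, stood at 18.7, 34.8, 41.8 and 31.9 CPM against 5.74, 6.39, 8.61 and 6.54 CPM, a ratio of 4.66, and was too low for the 12. Among the other genes between Calcr and Asb4, those with at least 20 UMIs in all Calcr neurons were closer to the other nuclei. Casd1, Sgce and Ppp1r9a had ratios of 1.31, 1.29 and 1.35 and were higher in 4 of 4 libraries, whereas Bet1 had a ratio of 1.28 and was higher in 2 of 4. Vps50, on the other side, had a ratio of 1.05. The neighbors of Calcr were chosen by position after Peg10 was seen among the leading genes.

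**Figure D1:**
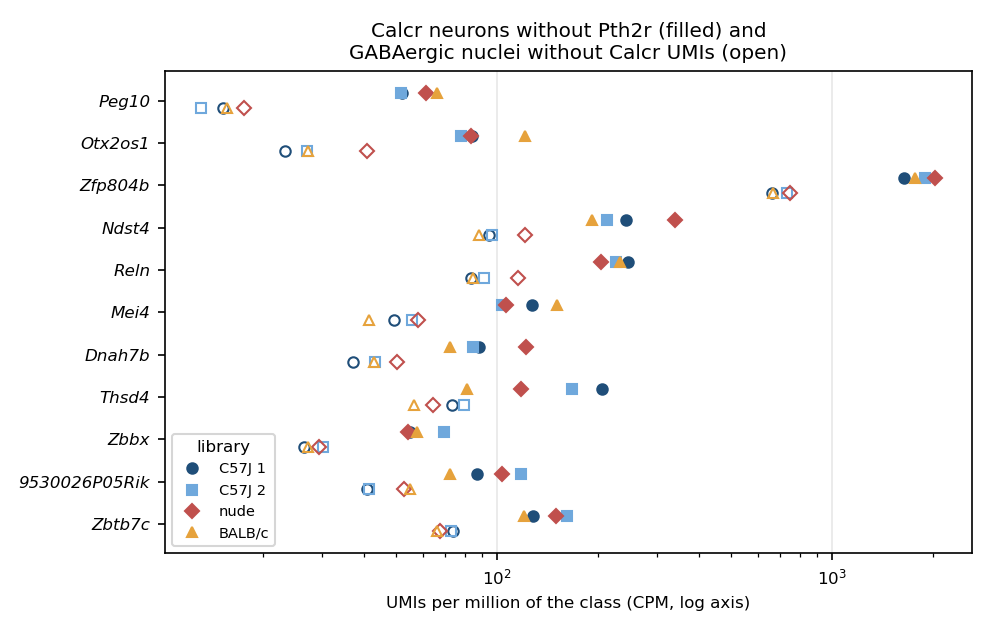
Levels (CPM, log axis) of 11 of the 12 genes with the largest ratio among those at 50 CPM or more in every library of Calcr neurons without Pth2r, one symbol per library, filled for these neurons and open for GABAergic nuclei without Calcr. In every row the 4 filled symbols lie to the right of the 4 open ones, as for Peg10 (52.1, 51.5, 61.4 and 66.2 against 15.2, 13.1, 17.6 and 15.6 CPM).

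The Calcr neurons were not uniform, and clustering divided them into 8 groups of 71, 71, 52, 49, 45, 44, 40 and 33 nuclei, numbered by size. Cluster genes are a description, since the same nuclei defined the clusters. Clusters 2, 6, 7 and 8 held Otx2os1 at 177, 369, 103 and 106 CPM, whereas clusters 1, 3 and 4 held 4.81, 14.8 and 14.6 CPM and cluster 5 held 48.7 CPM. This noncoding RNA was thus spread unevenly over the Calcr neurons.

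Cluster 1 was led by Dach2, a transcription cofactor, and held Acvr1, a receptor of bone morphogenetic proteins, at 311 CPM and the synaptic ligand Nxph1 at 4280 CPM. Cluster 2 was led by Gdpd2 and the transcription factor Onecut2 and had the highest Prlr level, 357 CPM. Cluster 3 was led by Adarb2 (733 CPM), an RNA editing enzyme, together with the transcription factors Foxp2 (390 CPM) and Meis1 (86.8 CPM), and it also had the highest level of the medial septum marker Elavl2 (290 CPM). Of its nuclei, 21.2% were predicted doublets.

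Cluster 4 stood furthest from the LS markers. It was led by Rarb, a retinoic acid receptor of striatal neurons, at 1220 CPM against 28.6 CPM in all other Calcr neurons. All 7 markers of striatal projection neurons (among them Drd1, Drd2, Adora2a, Rarb and Ppp1r1b) were highest in this cluster, with the dopamine receptor Drd2 at 315 CPM, and so was Penk at 230 CPM. Trpc4, in contrast, was lowest there at 116 CPM and ranged from 425 to 823 CPM in the other clusters. Its Calcr level of 559 CPM was the highest of the 8 clusters, and Ramp1 (49.5 CPM) and Calcrl (43.7 CPM) were highest in it as well. Of its nuclei, 8.16% were predicted doublets, and its median depth of 6363 UMIs was the lowest of the 8.

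Cluster 5 was led by Nhsl1, but the astrocyte gene Slc1a2 reached 820 CPM in it and 22.2% of its nuclei were predicted doublets. Cluster 6 was led by 9530026P05Rik, the synaptic adhesion gene Il1rapl2 (2620 CPM) and Otx2os1. Cluster 7 was led by Cpa6, a secreted carboxypeptidase, at 1110 CPM and was the deepest, with a median of 13769.5 UMIs and 17.5% predicted doublets. Cluster 8 was led by E130114P18Rik and Reln (735 CPM) and held 0 predicted doublets among its 33 nuclei.

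**Figure D2:**
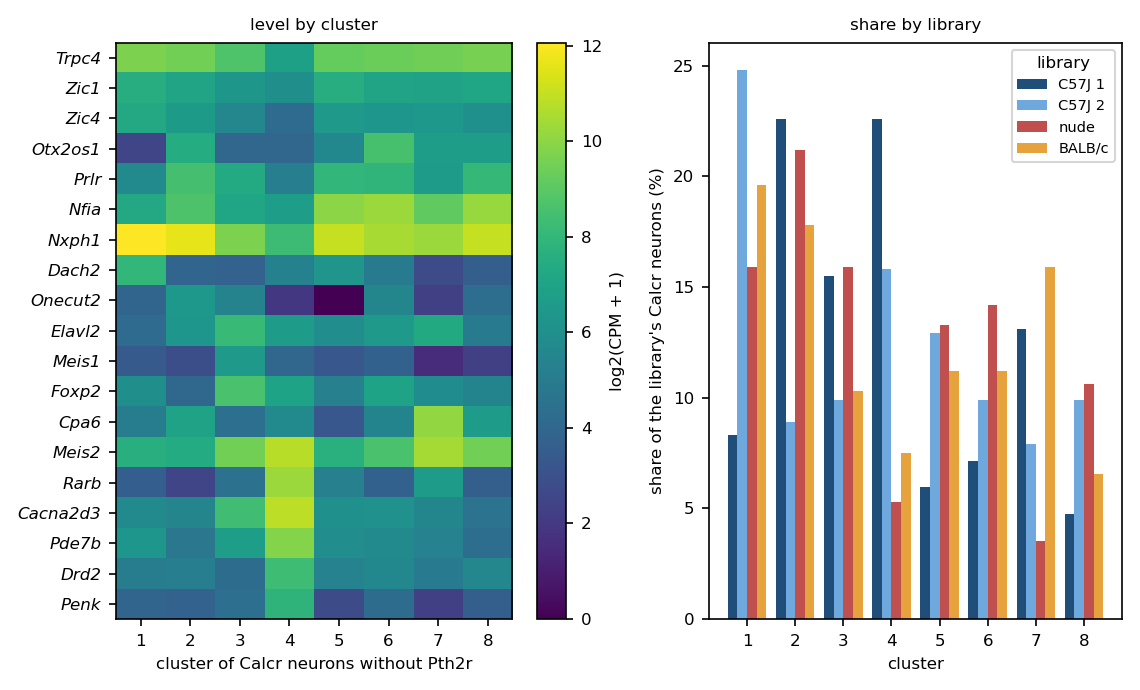
Left, levels of 19 genes in the 8 clusters of Calcr neurons without Pth2r, as log2(CPM + 1). Right, the share (%) of each library's Calcr neurons that fell in each cluster, with cluster 4, which holds Rarb and little Trpc4, at 22.6% in C57J 1 and 5.31% in nude.

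Cluster 4 also differed between the libraries. It held 22.6%, 15.8%, 5.31% and 7.48% of the Calcr neurons of C57J 1, C57J 2, nude and BALB/c, so both C57J libraries were above the other two. Counting Rarb directly, 28.6% (24 of 84), 15.8% (16 of 101), 2.65% (3 of 113) and 12.1% (13 of 107) of the Calcr neurons held at least 2 Rarb UMIs. The same limit gave 19.6%, 11.4%, 7.68% and 11.7% of the GABAergic nuclei without Calcr. C57J 1 was highest and nude lowest in both classes. How much striatum entered each dissection was not measured, and its part in these shares was not tested.

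Calcr neurons formed 0.781% of the GABAergic nuclei of C57J 1 (exact Clopper-Pearson 95% interval 0.623 to 0.966%) and 1.21% of those of C57J 2 (0.986 to 1.47%). Nude mice had 1.14% (0.939 to 1.37%), and BALB/c mice 1.30% (1.07 to 1.57%). C57J 1, the library of batch 1, was the lowest, and its interval overlapped that of nude but not those of C57J 2 and BALB/c. The 3 libraries of batch 2 had overlapping intervals. The nude share was 1.15 times and the BALB/c share 1.31 times the mean of the C57J libraries. Against C57J 2 alone, within batch 2, these ratios were 0.942 and 1.07. Since a deeper nucleus reaches 2 UMIs more easily, every nucleus was also thinned to the same total. With 4000 UMIs per nucleus the shares were 0.507%, 0.738%, 0.844% and 0.682%, which left out 28.2%, 31.5%, 29.0% and 17.8% of all nuclei as too shallow. With 2000 UMIs they were 0.291%, 0.278%, 0.316% and 0.195%, or 1.05%, 1.67%, 1.82% and 1.02% when 1 Calcr UMI was enough. Oligodendrocytes, which should lack the gene, held at least 1 UMI in 0, 1.71%, 1.28% and 0.428% at that depth, and astrocytes in 0.417%, 0, 0 and 0. The oligodendrocyte intervals reached 1.92%, 4.32%, 6.94% and 1.54% and covered the last set of shares in all 4 libraries. The astrocyte intervals reached 2.3%, 3.48%, 3.59% and 0.806%, and covered these shares in all libraries but BALB/c. The shares with 1 UMI are therefore not separated from background, except from astrocytes in BALB/c. BALB/c moved from the highest share to the lowest once depth was equalized at 2000 UMIs, and 2 libraries against 2 allow no exact permutation p below 0.333.

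**Figure D3:**
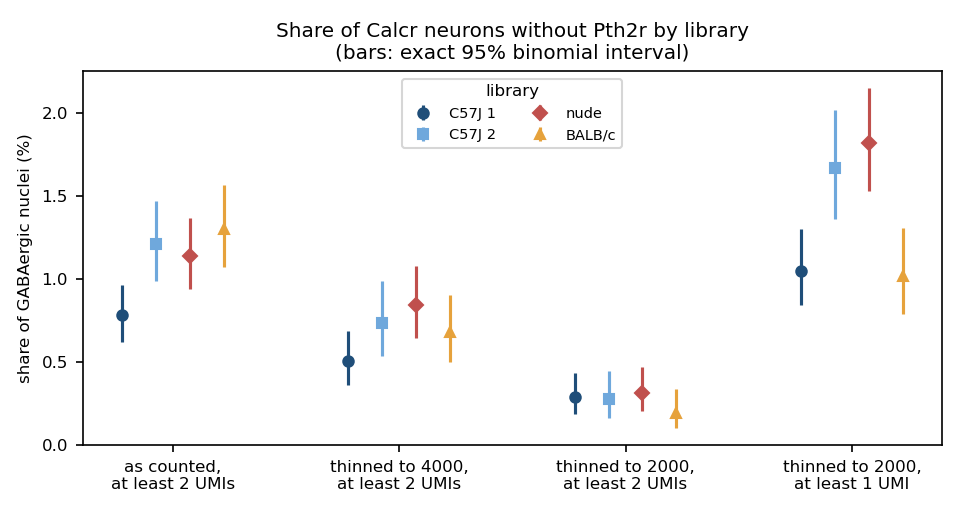
Share (%) of GABAergic nuclei that are Calcr neurons without Pth2r in each library, as counted and after thinning each nucleus to 4000 or 2000 UMIs, with exact 95% binomial intervals. BALB/c is highest as counted (1.30%) and lowest at 2000 UMIs (0.195% with at least 2 Calcr UMIs and 1.02% with at least 1).

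The strain comparison asked which genes differed in these neurons between the nude and BALB/c mice on one side and the C57J mice on the other. UMIs were summed per library and compared by edgeR's quasi-likelihood test, p-values were adjusted after Benjamini-Hochberg, and a gene was called at an adjusted p below 0.05 and a log2 fold change beyond 0.5. Among 8572 genes tested, 18 passed (0.21%), 8 higher (0.0933%) and 10 lower (0.117%) in nude and BALB/c. The C57J 1 library alone belonged to batch 1, and without it, within batch 2, 40 genes were called, 16 of the 18 among them. C57J is then a single library that is assumed to vary as nude and BALB/c do, so this count is no replicated check within the batch. DESeq2 called 10, all among the 18. Without C57J 2, nude or BALB/c the counts were 134, 85 and 61. With predicted doublets removed 4 genes were called (Cfap54, Dnah7a, 1500004A13Rik and Unc13c), and with nuclei thinned to 2000 UMIs 3 of the 18 (Cfap54, 1500004A13Rik and Unc13c). Oligodendrocyte markers also moved with strain in these neurons (428 and 420 CPM in C57J against 305 and 287 CPM), with 0 of the 5 tested called and 2 at an unadjusted p below 0.05, and their part in the calls was not tested.

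Genes of the motile cilium stood out among the higher genes. Dnah7a, a heavy chain of axonemal dynein at chr1:53397006-53706784, stood at 10.7, 6.96, 72.5 and 63.9 CPM. The nude and BALB/c libraries were alike and did not overlap with C57J, and the log2 fold change was 2.90 ± 0.35 (SE, adjusted p = 0.00119). Its close relatives Dnah7b and Dnah7c may share reads with it, so the assignment between them is uncertain.

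Dnah6, another axonemal dynein at chr6:73017606-73221651, stood at 5.35, 12.5, 57.7 and 60.8 CPM, a log2 fold change of 2.71 ± 0.37 (adjusted p = 0.0048). Cfap54, a cilia- and flagella-associated gene at chr10:92775619-93081618, was the most abundant of the 3 at 104, 91.9, 329 and 360 CPM, with a log2 fold change of 1.80 ± 0.17 (adjusted p = 0.000108). In all 3 genes both BALB/c-background libraries were above both C57J libraries. Of the 35 cilium and axoneme genes, 17 were tested, 3 were called higher and 0 lower, beside 0.0933% and 0.117% of all genes, and 6 had an unadjusted p below 0.05, as had 647 of all 8572 genes. Their median log2 fold change was 0.17 beside 0.00 for all genes tested, and 11 of the 17 lay above 0. Foxj1, the master regulator of motile cilia and an ependymal marker, was at 4.01, 0, 0 and 6.08 CPM in these neurons, and the 4 ependymal markers together at 6.68, 0, 0 and 11.4 CPM did not follow the strain.

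The start-site sequences of the dyneins are shown because both genes were called higher together and share a motif there (RefSeq, GRCm38.p6, reverse strand, 5′ to 3′). Capitals mark matches to GTTGCNNNGCAAC, a sequence of the X-box form, which regulatory factor X proteins bind at ciliary genes. The Dnah6 window is chr6:73221582-73221881 and the Dnah7a window is chr1:53706735-53707034. Cfap54 had no entry in the table of windows.
Dnah6: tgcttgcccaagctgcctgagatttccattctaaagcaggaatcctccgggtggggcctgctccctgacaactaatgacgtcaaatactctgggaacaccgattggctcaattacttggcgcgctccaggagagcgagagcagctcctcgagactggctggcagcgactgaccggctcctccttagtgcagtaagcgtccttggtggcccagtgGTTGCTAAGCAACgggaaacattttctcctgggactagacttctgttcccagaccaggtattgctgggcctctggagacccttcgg
Dnah7a: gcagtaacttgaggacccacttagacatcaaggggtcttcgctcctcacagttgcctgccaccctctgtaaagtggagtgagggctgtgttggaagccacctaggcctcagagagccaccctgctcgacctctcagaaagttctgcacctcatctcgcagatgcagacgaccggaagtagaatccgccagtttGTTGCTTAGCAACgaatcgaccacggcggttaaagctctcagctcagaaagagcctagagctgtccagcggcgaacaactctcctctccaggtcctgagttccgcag
The match begins at −36 in Dnah6 and at −57 in Dnah7a. This spelling of the X-box was chosen after these windows were seen, for its match to both, so the matches in them are no test. It reads the same on both strands and is the only inverted repeat of 5 bases around 3 that both hold. It occurs in 74 of 32851 windows (0.225%). Of the 35 cilium genes, 29 had a window and 3 a match, the third being Dnah7b, which was not called for strain.

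The other genes called higher were Rnf121, a ubiquitin ligase (57.5, 50.1, 142 and 134 CPM), Btbd9 (225, 187, 378 and 388 CPM), BC005561, and the zinc finger genes Zfp808 and Zfp951, members of a large family in which near-identical copies can share reads. Rnf121 rose by 1.34 ± 0.20 (adjusted p = 0.011) and Btbd9 by 0.89 ± 0.16 (adjusted p = 0.0282) on the log2 scale.

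Among the lower genes, the noncoding 1500004A13Rik (chr3:88782943-88832547) stood at 115, 135, 9.82 and 12.2 CPM, with a log2 fold change of −3.47 ± 0.27 (adjusted p = 1.71e-05). Fggy, a carbohydrate kinase gene (chr4:95557507-95926939), stood at 70.8, 59.9, 18.4 and 6.08 CPM, with a log2 fold change of −2.56 ± 0.39 (adjusted p = 0.011). Ulk4, a pseudokinase gene linked to ciliary and neuronal function (chr9:120955351-121277197), stood at 132, 123, 61.4 and 45.6 CPM, with a log2 fold change of −1.29 ± 0.21 (adjusted p = 0.0196). In each of these genes both nude and BALB/c were below both C57J libraries. Rec8, a meiotic cohesin gene, had 16, 16, 1 and 0 UMIs. Gm35256, a noncoding RNA gene, had 12, 11, 0 and 0 UMIs and was at least 11.1-fold higher in C57J, taking 3 UMIs over the group for the counts of 0. It was named after its values were seen.

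These differences were also present in the GABAergic nuclei without Calcr. Dnah7a stood at 8.52, 9.03, 46.6 and 36.2 CPM there, Cfap54 at 68.3, 74.6, 249 and 239 CPM and 1500004A13Rik at 112, 134, 16.9 and 13.1 CPM. A test of the difference itself, the strain effect in Calcr neurons against that in the other GABAergic nuclei, called 1 of 8568 genes (0.0117%), and 397 had an unadjusted p below 0.05. DESeq2 called 2, and edgeR called 48 without C57J 2, 6 without nude and 0 without BALB/c. For Dnah6 the difference was 0.75 on the log2 scale (adjusted p = 1.0), for Cfap54 it was 0.03 and for 1500004A13Rik −0.41, none of which passed the test.

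**Figure D4:**
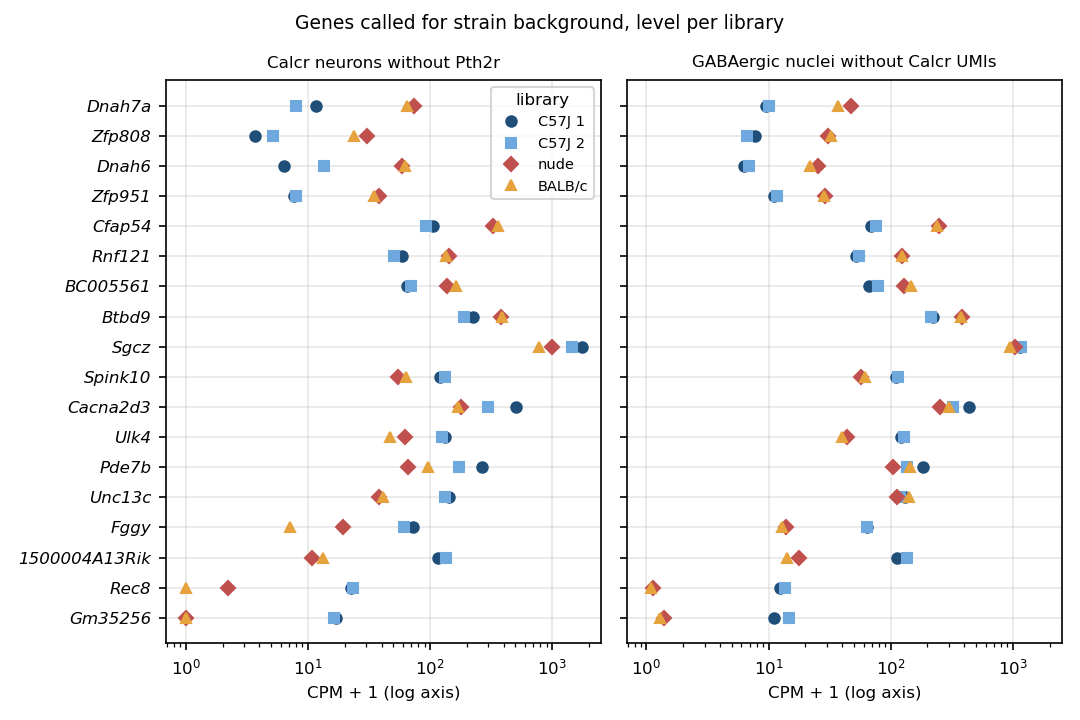
Levels (CPM + 1, log axis) of the 18 genes called for strain background, one symbol per library, in Calcr neurons without Pth2r (left) and in GABAergic nuclei without Calcr (right). Dnah7a, Cfap54 and 1500004A13Rik separate the C57J from the nude and BALB/c libraries in both panels, whereas Unc13c does so on the left only.

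The single gene called by edgeR for a difference in strain effect, with all 4 libraries, was Unc13c, which primes synaptic vesicles for release (chr9:73479422-73968966). In Calcr neurons it stood at 142, 132, 36.8 and 40.3 CPM, a log2 fold change of −1.83 ± 0.21 (adjusted p = 0.000763). In the other GABAergic nuclei it stood at 131, 119, 112 and 140 CPM, and the groups overlapped. The difference between the classes was −1.87 ± 0.19 (adjusted p = 0.00195, edgeR's quasi-likelihood test).

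Unc13c was also a leading gene of cluster 4, at 571 CPM against 27.1 CPM in the remaining Calcr neurons, and a sum over nuclei cannot tell fewer such nuclei from less RNA in each. Once nuclei with at least 2 Rarb UMIs were left out, the log2 fold change of Unc13c was −1.33 ± 0.41 and not called (adjusted p = 0.405, over a range of 3.64e-10 to 0.405 in its 12 alternatives). The difference between the classes was then −1.69 ± 0.38 with an adjusted p of 1.0, and the test called 0 genes by edgeR, with 334 at an unadjusted p below 0.05. Without BALB/c the difference was −1.74 ± 0.27 and not called either (adjusted p = 0.069). Pde7b, a cyclic AMP phosphodiesterase, stood at 265, 173, 65.1 and 95.1 CPM (log2 fold change −1.43 ± 0.23, adjusted p = 0.0139). Without the Rarb nuclei its log2 fold change was −0.90 ± 0.23 and not called. Cacna2d3, a calcium channel subunit, stood at 505, 299, 178 and 167 CPM (log2 fold change −1.24 ± 0.21, adjusted p = 0.0218), and −0.39 ± 0.27 was left without the Rarb nuclei. Sgcz, of the sarcoglycan complex, went from −0.86 ± 0.15 to −0.78 ± 0.16 and was no longer called (adjusted p = 0.0576). The genes Unc13c, Pde7b and Cacna2d3 all lead cluster 4, whose share was itself larger in C57J. Of the 18 calls, 13 were also made without the Rarb nuclei, the cilium genes, 1500004A13Rik, Fggy and Ulk4 among them.

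**Figure D5:**
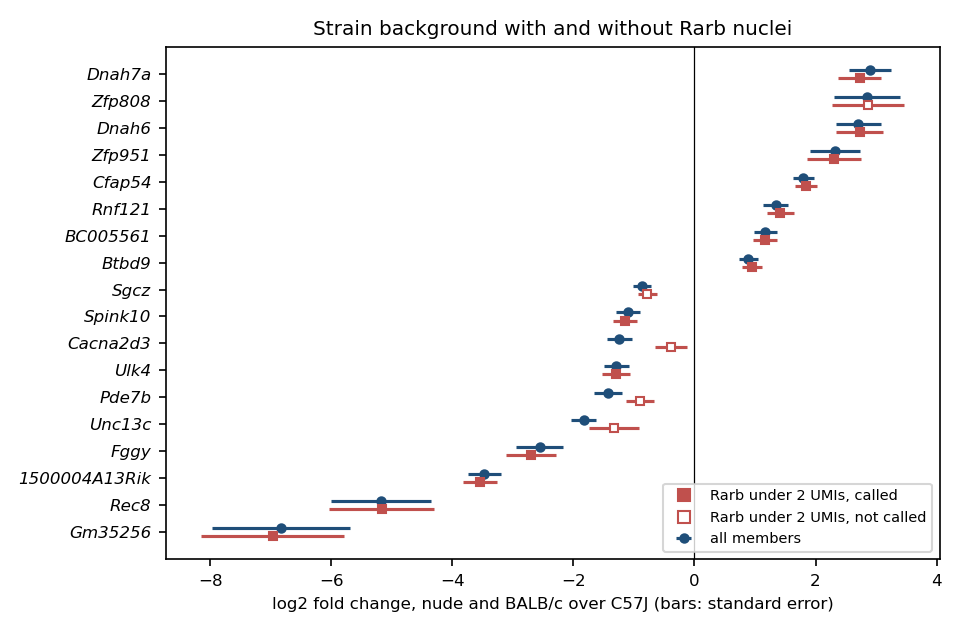
Log2 fold change (nude and BALB/c over C57J, bars show SE) of the 18 genes called for strain background, in all Calcr neurons without Pth2r (circles) and in those with fewer than 2 Rarb UMIs (squares, filled where still called). Cacna2d3 moves from −1.24 to −0.39 and Unc13c from −1.83 to −1.33, whereas Dnah6 stays at 2.71 and 2.73.

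The genes that the study names for neurons were looked at in the same comparison. Of 10, 9 were tested and 0 were called by edgeR or DESeq2, beside 0.21% of all genes, so that a count of 0 among so few is no result about them. An unadjusted p below 0.05 was found for 6 of the 9 and for 647 of all 8572 genes in edgeR. The median log2 fold change of the 9 was −0.37 beside 0.00 for all genes. Grm7, a metabotropic glutamate receptor, came nearest, at 1650, 1050, 624 and 1010 CPM (log2 fold change −0.73 ± 0.21, unadjusted p = 0.00399, adjusted p = 0.326). It stood at 3400 CPM in cluster 4, whose share was larger in both C57J libraries, and at 188 to 1760 CPM in the other clusters. Acvr1 stood at 56.1, 142, 93.3 and 140 CPM (log2 fold change 0.26 ± 0.30), with C57J 1 apart from the rest and overlapping groups. Among cyclic AMP signaling genes, through which the calcitonin receptor acts, 30 of 31 were tested, with a median log2 fold change of −0.19. Pde7b alone was called, beside 0.21% of all genes, and it was not called once the Rarb nuclei were left out. Of the 8 immediate early genes tested, 0 were called by either tool, again beside 0.21% of all genes, and 2 had an unadjusted p below 0.05 (median log2 fold change 0.52). The counts were 0 and 4 for the 9 LS neuron markers (median 0.41), and 0 and 3 for the 4 striatal markers (median −1.11).

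Calcr neurons were next set against the GABAergic nuclei with both receptors. With at least 2 UMIs of Calcr and of Pth2r there were only 14 such nuclei (4, 5, 0 and 5), so nude gave no comparison. Over the 3 libraries, with the library as a block, 32 of 6022 genes passed (0.531%), 24 higher (0.399%) and 8 lower (0.133%) in the neurons without Pth2r. Another scaling (RLE) gave 26 higher and 16 lower, and 61 genes were called without C57J 2. With comparison nuclei matched on UMI totals, 0 of the 32 were called and 12 of them were not tested, and with nuclei thinned to 2000 UMIs 8 of the 32 were called. Because 14 nuclei carry few UMIs, the values below come with wider comparisons. Against 46 nuclei with at least 2 Calcr UMIs and 1 Pth2r UMI, 76 of 6670 genes were called (1.14%, with 0.705% higher and 0.435% lower), 25 of the 32 among them. Against 519 nuclei with at least 2 Pth2r UMIs whatever their Calcr, 375 of 8934 genes were called (4.2%, with 1.69% higher and 2.51% lower), 17 of the 32 among them. Only 14 of the 519 held at least 2 Calcr UMIs, so this last contrast differs in Calcr as well as in Pth2r.

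Reln was higher in the neurons without Pth2r. It stood at 245, 226, 204 and 232 CPM in Calcr neurons without Pth2r and at 35.8, 26.8, 50.6 and 42.1 CPM in the 519 Pth2r neurons, with no overlap, and the 14 nuclei with both receptors held 1 Reln UMI. The log2 fold change was 2.98 ± 0.35 against the 46 nuclei and 2.48 ± 0.13 against the 519, called in both. Cpa6 stood at 360, 164, 78.6 and 228 CPM against 47.4, 42.7, 27.7 and 43.9 CPM, and its log2 fold change against the 519 nuclei was 2.30 ± 0.15. Its level was uneven within the Calcr neurons, at 1110 CPM in cluster 7 and 55.1 CPM in all other clusters together. Pbx3, a homeobox cofactor, stood at 306, 265, 253 and 287 CPM against 164, 108, 76.3 and 96.8 CPM (1.31 ± 0.11 against the 519 nuclei, not called against the 46). Adarb2 was higher against the nuclei with both receptors (3.06 ± 0.62) but reversed to −0.82 ± 0.14 against the 519. In all, 7 of the 32 calls had the other sign there, all of them higher against the 14 nuclei, with values of −0.44 for Grm7 and Galntl6, −0.36 for Nell1, −0.20 for Kcnip4, −0.07 for Cntn5 and −0.02 for Erbb4.

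Lower in the neurons without Pth2r was Cntnap5a, a neurexin-like adhesion gene, at 468, 792, 496 and 502 CPM against 1530, 1640, 1960 and 1800 CPM in the 519 Pth2r neurons. Its log2 fold change was −1.54 ± 0.26 against the 14 nuclei (adjusted p = 0.00317) and −1.69 ± 0.10 against the 519. Pcdh15, a protocadherin, was at 1280, 1490, 982 and 1100 against 2720, 2280, 2760 and 2340 CPM in the 519. Its log2 fold change against the 14 nuclei was −1.10 ± 0.20 (adjusted p = 0.00594). Slit2, a guidance ligand, was at 275, 265, 244 and 179 against 500, 450, 507 and 356 CPM in the 519. Its log2 fold change against the 14 nuclei was −1.35 ± 0.27 (adjusted p = 0.0162). Cntnap5a, Pcdh15 and Slit2 were called lower in all 3 comparisons.

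Calcr neurons were also set against the 657 GABAergic nuclei with at least 2 Esr1 UMIs and no Calcr or Pth2r. These nuclei also hold Otx2os1 (134, 85.0, 135 and 110 CPM against 84.2, 78.0, 83.5 and 121 CPM in Calcr neurons). With the library as a block, 307 of 10028 genes passed (3.06%), 112 higher (1.12%) and 195 lower (1.94%) in Calcr neurons. Without the block 182 were called. Nxph1 stood at 1670, 2060, 2500 and 2090 CPM against 840, 775, 1020 and 786 CPM, without overlap (log2 fold change 1.28 ± 0.07, adjusted p = 2.8e-09). Nfia, a transcription factor of the nuclear factor I family, stood at 497, 480, 602 and 448 against 266, 242, 248 and 164 CPM (1.17 ± 0.09, adjusted p = 1.23e-07). Reln was again higher, at 245, 226, 204 and 232 against 116, 126, 118 and 58.1 CPM (1.21 ± 0.14, adjusted p = 1.43e-05). These 3 genes were called in all 15 alternatives.

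Among receptors of peptides and hormones, the genes called were lower in Calcr neurons. Of the 36 on the list, 13 were tested, 0 were called higher and 4 lower, beside 1.12% and 1.94% of all genes, and their median log2 fold change was −0.37 beside 0.00 for all genes. Tacr1, the receptor of substance P, stood at 4.01, 2.78, 11.1 and 5.32 CPM against 37.8, 22.3, 23.4 and 36.0 CPM (−2.37 ± 0.31, adjusted p = 5.12e-05). Tacr3, the neurokinin B receptor, stood at 4.01, 4.18, 4.91 and 9.89 against 17.8, 19.8, 16.6 and 30 CPM (−1.81 ± 0.28). The μ opioid receptor Oprm1 (70.8, 75.2, 94.6 and 35.0 against 107, 135, 124 and 146 CPM) and Prlr (172, 150, 235 and 165 against 264, 261, 263 and 272 CPM) were the others. Prlr was thus above the level of GABAergic nuclei at large and below that of Esr1 neurons. The muscarinic receptor Chrm2 was also lower, at 78.9, 121, 126 and 90.5 against 195, 266, 256 and 268 CPM (−1.27 ± 0.10, adjusted p = 2.22e-07).

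Of the 47 adhesion and guidance genes, 45 were tested, 14 were called lower, 1 higher (Cdh20) and the others in neither direction, beside 1.94% of all genes called lower and 1.12% higher. Their median log2 fold change was −0.20, against 0 over all genes tested. The guidance receptor Robo2 stood at 142, 177, 90.9 and 139 against 230, 290, 212 and 283 CPM (−0.91 ± 0.10), and the adhesion gene Cntn4 at 575, 551, 618 and 828 against 1140, 1010, 1270 and 1530 CPM (−0.94 ± 0.07). Of the 30 potassium channel genes, 3 were called higher and 5 lower, beside the same shares of all genes. The median log2 fold change of the 30 was 0.02. Kcnab1, a channel β subunit, stood at 723, 640, 737 and 662 against 354, 370, 350 and 368 CPM (0.94 ± 0.08), whereas Kcnq3, a subunit of the M current, stood at 237, 301, 319 and 276 against 578, 544, 447 and 557 CPM (−0.90 ± 0.10). Of 48 septal and forebrain transcription factors, 40 were tested. Among these, 5 were called higher (Nfia, Onecut2, Zfhx3, Sp9 and Foxp1) and 4 lower (Ebf1, Pax6, Tcf4 and Tshz2), beside 1.12% and 1.94% of all genes. The median log2 fold change of the 40 was −0.02. Rarb and Drd2 were called higher as well (1.24 ± 0.25 and 0.98 ± 0.24). Cluster 4 held Rarb at 1220 CPM against 28.6 CPM in all other Calcr neurons. Esr1 neurons held Rarb at 39.4, 89.1, 30.3 and 73.9 CPM. Drd2 stood at 315 CPM in cluster 4 and at 18.5 to 49.2 CPM in the other clusters.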

How the data were processed

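Single-nucleus RNA was measured in 4 libraries. Raw UMI counts per gene and barcode were deposited by the authors as Cell Ranger matrices, and per the submitters' processing notes Cell Ranger 7.0.1 and mm10 were used. Whether introns were counted and whether strand was used is not given in the sources used here. The mm10 sequence is that of C57BL/6J, so reads of nude and BALB/c mice were aligned to the genome of another strain, and its part in the strain comparison was not tested.

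Barcodes with 200 to 6000 genes, under 2% mitochondrial UMIs and at least 2000 UMIs were kept. The members, gene lists and tests were chosen with earlier results of these data known. UMIs were summed per library and class, filtered with filterByExpr, scaled by TMM and tested with edgeR 4.0.16 (quasi-likelihood F test, R 4.3.3) with Benjamini-Hochberg adjustment. DESeq2 1.42.0 was an alternative. Comparisons within libraries had the library as a block, since both classes came from the same pooled mice, and genes of the rule were left out. The test of strain effects between classes and all alternatives on Rarb were added after the data were seen. The tests were checked on simulated data with 200 changed genes. Log2 changes of 1 were recovered in 47% of cases for strain, 8% against Pth2r neurons and 85% against Esr1 neurons. For log2 changes of 2 these shares were 98%, 55% and 100%. False calls numbered 13, 1 and 8, respectively.

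Named were the genes of the rule and of the calcitonin system, the 10 called genes per direction with the largest change among those with at least 20 CPM in the higher group and libraries that did not overlap, called and abundant genes of the lists, the neuron genes of the study, and the 12 genes with the largest ratio to other GABAergic nuclei among those with at least 50 CPM in the members of every library. Asb4 and the other neighbors of Calcr, and Gm35256, were named after their values were seen. Some genes that the rule names are not reported here. Doublets were predicted from 2 simulated doublets per nucleus at an expected 0.8% per 1000 nuclei, marked 10, 11, 11 and 10 of the Calcr neurons of C57J 1, C57J 2, nude and BALB/c, and were kept in the main values. Clusters came from Leiden clustering (leidenalg 0.10.2, resolution 1) on 15 principal components of 1000 variable genes centred within each library. Libraries shared 305 barcode sequences, 0 of them between members of different libraries. Intervals and floors (3 counts) cover counting error only. Gene positions were taken from GENCODE vM21 (GRCm38) by identifier.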

Additional observations from a re-analysis of the deposited data

Results flagged for a closer look

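The share of Calcr neurons among GABAergic nuclei thinned to 2000 UMIs, with 1 Calcr UMI enough, was above both C57J libraries in nude (1.82% against 1.05% and 1.67%) and below both in BALB/c (1.02%). The shares with 1 UMI lay within the intervals of oligodendrocytes at that depth, and within those of astrocytes except in BALB/c, where 0 astrocytes held a UMI (at most 0.806%). With 2 Calcr UMIs nude was again above and BALB/c below both C57J libraries, at 0.316% in nude, 0.291% and 0.278% in C57J and 0.195% in BALB/c. Thinned to 4000 UMIs, however, BALB/c (0.682%) lay between the C57J libraries (0.507% and 0.738%), and without thinning it was the highest at 1.30%. Crcp stood at 39.3 CPM in the Calcr neurons of nude and 25.9 CPM in those of BALB/c, above and below the 29.4 and 32.0 CPM of C57J. Gad1, one of the genes of the rule, stood at 183 CPM in nude mice, below the 235 and 189 CPM of C57J, and at 241 CPM in BALB/c mice, above both. Nude and BALB/c had 1 library each, so none of these 4 differences was tested.

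Unc13c was the only gene of 8568 called for a difference in strain effect between Calcr neurons and other GABAergic nuclei. The difference was −1.87 on the log2 scale (SE 0.19, adjusted p = 0.00195 by edgeR's quasi-likelihood test). Once nuclei with at least 2 Rarb UMIs were left out of both classes, the difference was −1.69 (SE 0.38) and not called (adjusted p = 1.0).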

How the results depend on the processing

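With 4 libraries, of which C57J 1 alone was in batch 1, depth and the number of libraries limit what could be seen, and single genes were followed through 12 (strain), 15 (Pth2r) and 15 (Esr1) alternatives at most. No paired analysis was possible because C57J, nude and BALB/c share only 1 replicate number and each library holds different mice, so the strain comparison had no replicate block. In the comparisons within libraries, the fit without the replicate block called 182 genes against Esr1 neurons in place of 307 and 32 against the nuclei with Pth2r, as many as with it.

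In the strain comparison, 18 genes became 10 with DESeq2, 102 with no filter on low counts, 4 with predicted doublets removed, 4 with nuclei thinned to 2000 UMIs, 11 with at least 3 Calcr UMIs and 40 to 134 with 1 library left out. Against the nuclei with Pth2r, 32 became 14 with DESeq2, 76 with no filter, 9 thinned, 1 with comparison nuclei matched on UMI totals (878 genes tested), 76 with at least 1 Pth2r UMI, 375 whatever Calcr and 26 to 61 with 1 library left out. No value without nude exists there, since nude held no such nucleus. Against Esr1 neurons, 307 became 142 with DESeq2, 181 thinned and 218 to 335 with 1 library left out. The test of strain effects between classes called 1 gene, 2 with DESeq2, 0 without Rarb nuclei and 0 to 48 with 1 library left out. Except where the alternative itself tested fewer genes or samples, the cause was not tested.

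The ratio of the nude share to C57J, 1.15, ranged from 0.942 to 1.46 with 1 C57J library left out. That of BALB/c, 1.31, ranged from 1.07 to 1.66, and fell to 0.75 and 0.685 when nuclei were thinned to 2000 UMIs with at least 1 and 2 Calcr UMIs.

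For named genes, 151 of 198 alternative values of 17 strain genes kept direction and call, 47 lost the call and 0 reversed. Against the nuclei with Pth2r these were 183, 74 and 1 of 258 (Adarb2, to −0.82 whatever Calcr; over all 32 calls, 7 turned sign there), and against Esr1 neurons 261, 21 and 1 of 283 (Rarb, to −0.27 with an SE of 0.32 without Rarb nuclei, a filter on that gene itself, so the value tests nothing).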
